A study of Arabidopsis thaliana with 3 samples.

Results

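Transcript levels of 8 genes of the stomatal lineage and of guard cells were read in shoots of Arabidopsis thaliana, in the Col wild type and in the double mutant flp-1/myb88. The genes were matched by locus to probe sets annotated to exactly 1 gene: SPCH (AT5G53210), MUTE (AT3G06120), FAMA (AT3G24140, listed as FMA), STOMAGEN (AT4G12970), GC1 (AT1G22690), BLUS1 (AT4G14480), CHX20 (AT3G53720) and PATROL1 (AT5G06970). Each had 1 probe set, so 8 of the 22746 probe sets compared, and 8 of the 13286 genes that could be named, are described. The symbols GC1, BLUS1 and PATROL1 are the usual names of their loci, for which the gene table gives no symbol. The 8 genes were chosen by role, not by the values given here, but with earlier results of these data known.

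The samples were whole shoots taken at 10 days from plants kept at 22 °C in continuous light. There were 2 Col arrays, called Col replicate 1 and Col replicate 2, and 1 array of flp-1/myb88, a line with the flp-1 allele of the gene FLP and a mutated MYB88. The allele of MYB88 and the number of plants behind each array are not given in the labels. Nothing in the labels says that the Col arrays came from separate plants, so the p-values reflect how far 2 arrays differ, possibly for technical reasons alone. FLP and MYB88 had no named probe set among those analysed here, so the label of the mutant array was not checked against the mutated genes.

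Stomata, the pores of the leaf surface, arise from a lineage of dividing epidermal cells that passes through 3 steps, each governed by a basic helix-loop-helix factor. SPCH starts the asymmetric divisions, MUTE ends them and commits a cell to become a guard mother cell, and FAMA stops the division of that cell and sets guard cell identity. FLP and MYB88 are MYB factors that restrict the same last division, and plants lacking both form clusters of guard cells side by side. Secreted peptides tune how many cells enter the lineage, and STOMAGEN, made in the mesophyll beneath, promotes entry. Mature guard cells open and close the pore by moving ions, using kinases, exchangers and a proton pump at the plasma membrane.

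The mutant array stood apart from both Col arrays well beyond these genes. With limma at a Benjamini-Hochberg adjusted p under 0.05, 11.9% of all probe sets were higher and 14.4% lower in flp-1/myb88. In 6 of 6 pairs of control probe sets the excess of the 3′ over the 5′ probe set was greater in the mutant than in either Col sample, by between 0.093 and 1.70 log2 over the higher Col array. The part of this difference between arrays in the results on the 8 genes was not tested. Error was estimated from Col replicates 1 and 2, with 1 residual degree of freedom. The 12.1 prior degrees of freedom were estimated by limma from all probe sets. On simulated data of this design such an estimate came out too high. With the prior fixed at 4 degrees of freedom, a setting chosen after the data were seen, limma called 0 probe sets, although 7126 had an unadjusted p under 0.05, among them 5 of the 8 genes. Every call below therefore rests on that estimated prior.

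Of the 8 genes, 2 rose in flp-1/myb88 (MUTE and PATROL1), 3 fell (GC1, BLUS1 and CHX20) and 3 did not pass the threshold (SPCH, FAMA and STOMAGEN). These shares stand beside 11.9% higher and 14.4% lower over all probe sets, and with 8 genes they describe these genes and no wider class. For 8 of 8 genes the mutant was higher or lower than both Col arrays, where 86.7% of all probe sets did so. A distance of at least 1 log2, or 2-fold, from the nearer Col array was reached by 1 of the 8, GC1, against 14.8% of all probe sets. A distance of at least 1.5-fold was reached by 5 of the 8, the same 5 that passed the threshold, against 35.8% of all probe sets. Both rules read the same 3 values, and no probe set with a difference under 0.85 log2 was called. The match between the rules is therefore no separate support for these 5. The median difference of the 8 genes was -0.26 log2, and that of all probe sets was 0.10.

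**Figure D1:**
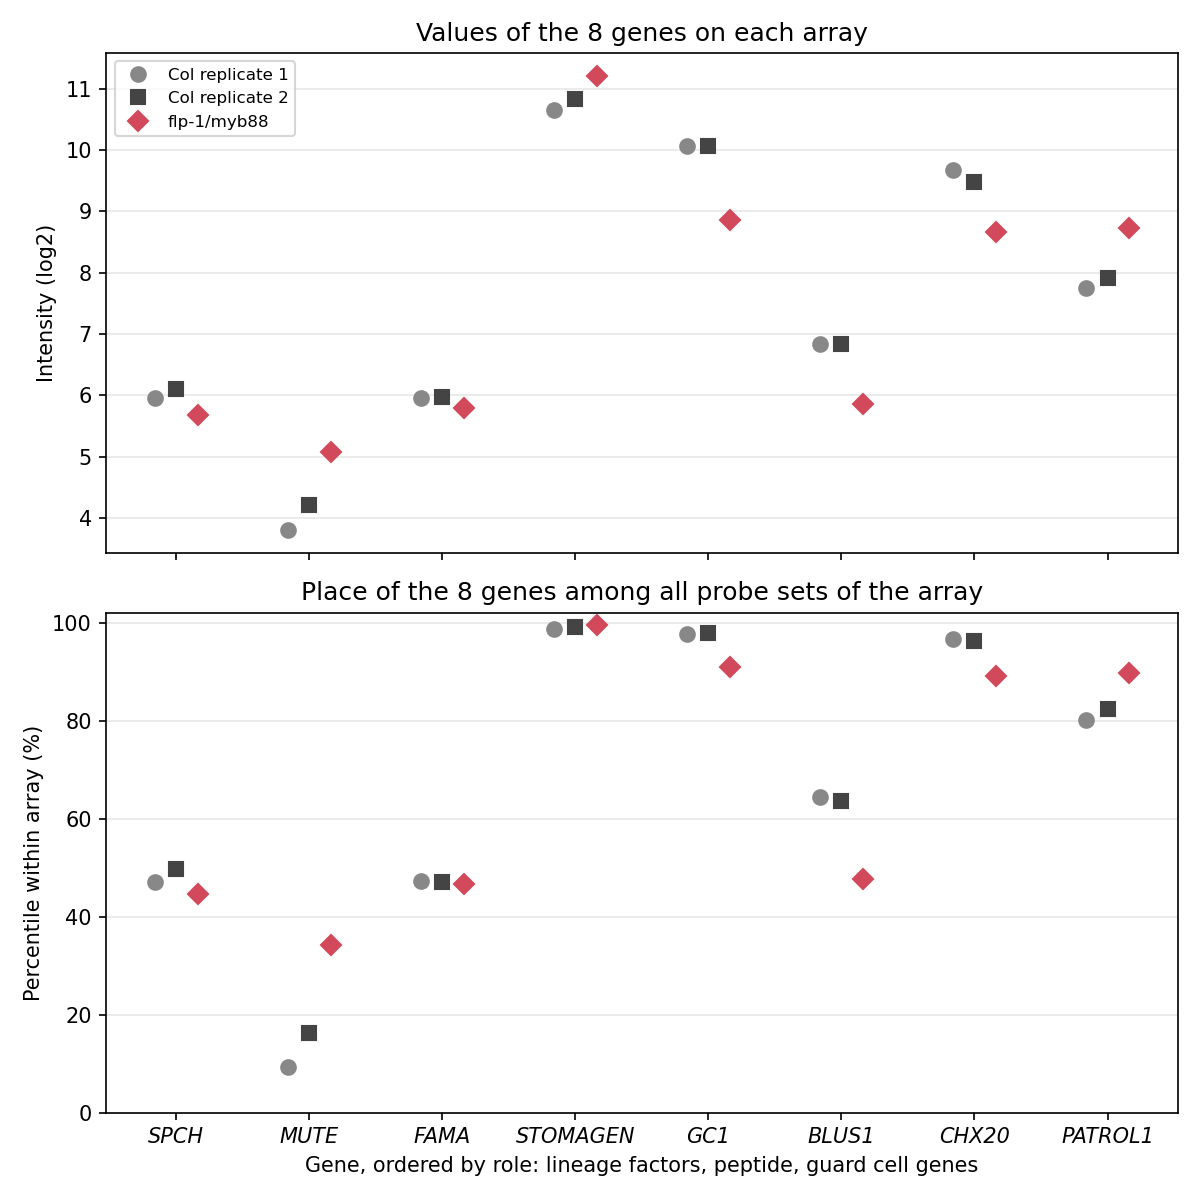
Upper panel: log2 intensity of the 8 genes on Col replicate 1 (circles), Col replicate 2 (squares) and the single flp-1/myb88 array (diamonds). Lower panel: the percentile of the same values among all 22746 probe sets of the same array. MUTE, PATROL1 and STOMAGEN lie above both Col arrays in both panels. GC1, BLUS1 and CHX20 lie below both in both panels, as do SPCH and FAMA by a smaller distance.

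The first factor of the lineage, SPCH, did not pass the threshold. Its log2 intensity was 5.95 and 6.11 in Col and 5.68 in flp-1/myb88. The mutant value lay below both, at a distance of 0.27 from the nearer of them, and the Col arrays were 0.16 apart. The difference from the Col mean was -0.35 ± 0.30 log2 (SE; limma adjusted p = 0.411), with a 95% confidence interval that ran to 0.29 above and to 1 log2 below Col. A fall of SPCH of about 2-fold was thus within the interval. SPCH stood at percentiles 47.1 and 49.7 in Col and 44.6 in flp-1/myb88, near the middle of each.

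MUTE, the second factor, was the one of the 3 that rose. Its log2 intensity was 3.80 and 4.21 in Col and 5.08 in flp-1/myb88, or 14.0, 18.5 and 33.8 on the linear scale. The mutant array was the highest, but the Col arrays themselves were 0.41 log2 apart, a wider gap than at 72.0% of all probe sets. The rise was 1.07 ± 0.31 log2 (limma adjusted p = 0.0247, 95% confidence interval 0.40 to 1.75). It was 1.27 log2 against Col replicate 1 and 0.87 against Col replicate 2. Within the arrays MUTE moved from percentiles 9.30 and 16.2 to 34.2, the widest shift of percentile among the 8 genes.

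MUTE was dim in Col and was not shown to be above background there, so the rise of 1.07 log2 given above is uncertain in size. It was not turned into a fold for that reason. The place of MUTE in the counts by the 1.5-fold and 2-fold rules is uncertain too. Pseudogenes, which mostly give little or no transcript, had a median log2 intensity of 4.02, 3.93 and 3.87 on the 3 arrays. MUTE exceeded 42.9% and 56.8% of these 923 probe sets in Col and 82.3% of them in flp-1/myb88. The bacterial poly-A controls, which were also dim, were higher on the mutant array at 27 of 27 probe sets, with a median of 3.47 against 3.10 and 3.04, and MUTE lay above all 27 on each array. Among the 1999 probe sets whose mean over the 3 arrays was within 0.25 log2 of that of MUTE, the median difference was -0.11 and 9.35% were called higher. When 16 intensity units were added before the log, which damps changes near background, the MUTE difference was 0.63 and its limma adjusted p was 0.0937.

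FAMA, the third factor, had nearly equal values on the Col arrays. It stood at 5.96 and 5.98 log2 in Col and at 5.80 in flp-1/myb88. The mutant value was below both Col values by little, and its percentile of 46.7 was close to the Col percentiles of 47.3 and 47.0. The difference was -0.17 ± 0.30 log2 (limma adjusted p = 0.708), with a 95% confidence interval from -0.81 to 0.47. The interval leaves room for a fall or a rise of modest size, so an equal level was not shown. The change of MUTE exceeded that of FAMA by 1.44 log2 against Col replicate 1 and by 1.05 against Col replicate 2, and that of SPCH by 1.55 and 1.30. These differences of changes were not tested.

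STOMAGEN, the peptide that promotes entry into the lineage, was among the brightest probe sets of every array. Its log2 intensity was 10.65 and 10.84 in Col and 11.21 in flp-1/myb88, at percentiles 98.8, 99.1 and 99.5. The mutant array was again above both Col arrays, with a distance of 0.37 to the nearer of them. The difference was 0.47 ± 0.30 log2 (limma adjusted p = 0.270, 95% confidence interval -0.18 to 1.12). The mesophyll, where STOMAGEN is made, makes up much of a leaf. In whole shoots, more cells of a type and more RNA per cell cannot be told apart, and this holds for each gene described here.

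Of the guard cell genes, GC1 fell furthest. GC1 is known for a promoter that is active mainly in guard cells and is widely used to drive genes there. It stood at 10.07 log2 on both Col arrays and at 8.85 in flp-1/myb88, or at 1075, 1071 and 462 on the linear scale. The Col values nearly coincided, and the mutant value was far below them. Their closeness hardly lowered the SE, which rests mostly on limma's prior over all probe sets. It was 0.298 for GC1 and 0.313 for MUTE, whose Col arrays lay further apart. The fall of GC1 was 2.32-fold, at -1.22 ± 0.30 log2 (limma adjusted p = 0.0108, 95% confidence interval -1.86 to -0.57). Among the 385 probe sets of similar mean intensity, the median difference was 0.31 and 8.31% were called lower, so GC1 lay 1.53 log2 below the middle of probe sets at its level. Its percentile went from 97.8 and 98.0 to 91.0, so it remained a bright probe set in the mutant.

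BLUS1 is a kinase that phototropins activate in blue light and that is needed for stomata to open in it. It stood at 6.84 log2 on both Col arrays and at 5.86 in flp-1/myb88. As with GC1, the Col arrays nearly coincided, with a smaller gap at 1.15% of all probe sets, and the mutant value was below both. BLUS1 fell 1.97-fold, at -0.98 ± 0.30 log2 (limma adjusted p = 0.0293, 95% confidence interval -1.62 to -0.34). It dropped from percentiles 64.4 and 63.7 to 47.7, the largest drop in percentile of the 8 genes. The call was lost after quantile normalization, at -0.89 and a limma adjusted p of 0.0614. At this intensity falls were common, since 22.1% of the 2197 probe sets of similar level were called lower.

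CHX20 is a cation and proton exchanger of guard cells that takes part in ion balance and opening. Its log2 intensity was 9.67 and 9.47 in Col and 8.66 in flp-1/myb88. The mutant value was below both, and Col replicate 2 was the nearer. CHX20 fell by 0.91 ± 0.30 log2 (limma adjusted p = 0.0404, 95% confidence interval -1.56 to -0.26), which was 2.01-fold against Col replicate 1 and 1.76-fold against Col replicate 2. After median centring of the arrays the difference was -0.81 and the limma adjusted p was 0.0671, so the call was lost. Its percentiles were 96.7 and 96.2 in Col and 89.1 in the mutant. Among the 600 probe sets of similar level the median difference was 0.30, and 7.50% were called lower.

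PATROL1 moved the other way. It encodes a Munc13-like protein that brings the proton pump AHA1 to the plasma membrane, and it is expressed outside guard cells too. Its log2 intensity was 7.75 and 7.91 in Col and 8.73 in flp-1/myb88, at percentiles 80.1, 82.4 and 89.8. The mutant array was above both Col arrays, by 0.82 log2 over the nearer. PATROL1 rose by 0.90 ± 0.30 log2 (limma adjusted p = 0.0419, 95% confidence interval 0.25 to 1.55). Probe sets of similar level had a median difference of 0.25, and the PATROL1 call was lost after cyclic loess (0.65, limma adjusted p = 0.124) and after quantile normalization (0.73, limma adjusted p = 0.108). The changes of PATROL1 and GC1 were 2.20 log2 apart against Col replicate 1 and 2.04 apart against Col replicate 2, a difference that was not tested.

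**Figure D2:**
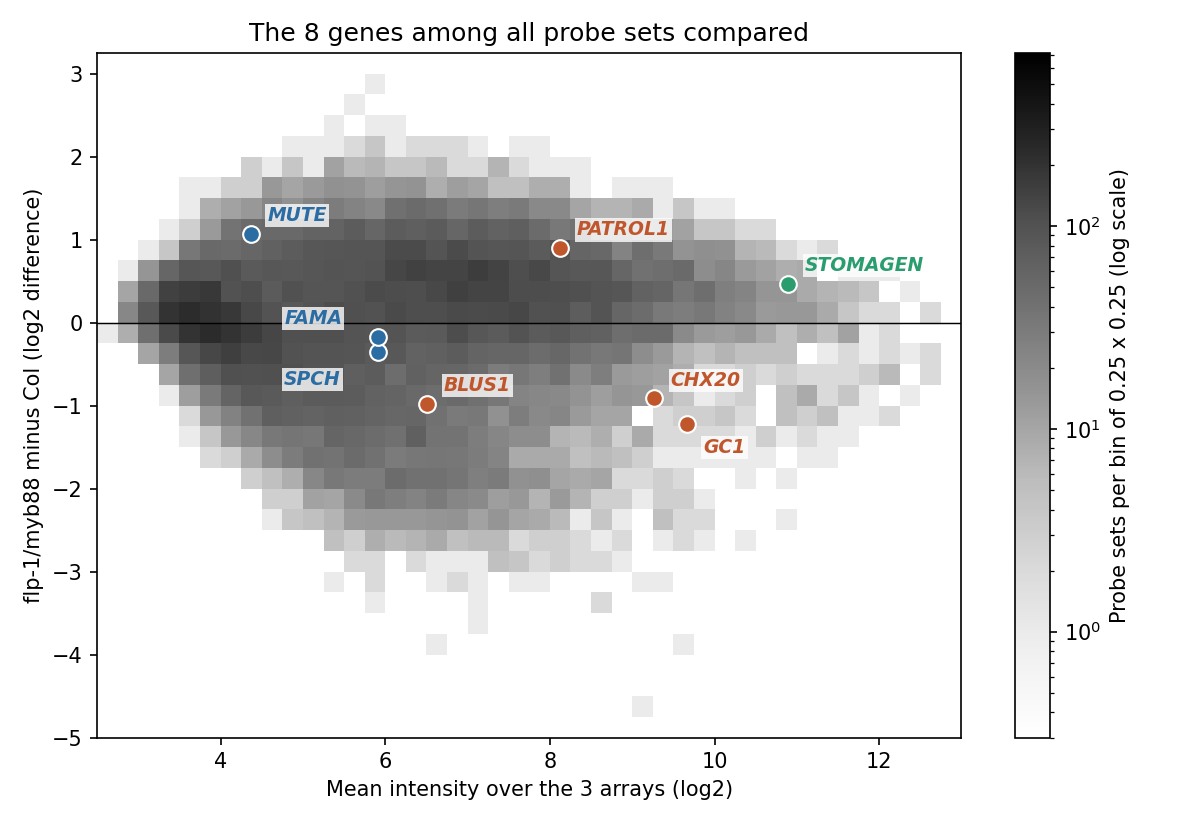
Difference between flp-1/myb88 and the Col mean (log2, vertical) against the mean log2 intensity over the 3 arrays (horizontal). Grey squares count all 22746 probe sets and the coloured points are the 8 genes (blue lineage factors, green STOMAGEN, orange guard cell genes). Of the probe sets of similar level (within 0.25 log2), 5.97% had a lower difference than GC1, 6.67% a lower one than CHX20 and 20.9% a lower one than BLUS1, while 4.90% had a higher one than MUTE and 12.8% a higher one than PATROL1.

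The choice of Col array mattered little for the direction of these genes. Col replicate 2 was the nearer to the mutant for 6 of the 8 genes and Col replicate 1 for 2, SPCH and FAMA. Over all probe sets Col replicate 1 was the nearer at 65.2%. Against either Col array alone each of the 8 genes kept its sign, and the differences ran from 0.87 to 1.27 for MUTE and from -1.01 to -0.82 for CHX20. For GC1 and BLUS1 the values against the 2 Col arrays agreed to 2 decimals or nearly so, at -1.22 and -1.21 for GC1 and at -0.98 against both for BLUS1. With 16 intensity units added before the log, GC1 was the one of the 8 that still passed, at -1.19 and a limma adjusted p of 0.037, and the rises of CRSP, SOL1 and ACR4 described below also lost their calls, at adjusted p-values of 0.0548, 0.0569 and 0.0571.

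Of the other genes of stomatal development, 2 rose and none of those measured fell. A list of 43 regulators had 8 with a named probe set, the 4 described above and 4 others. CRSP (AT1G20160), a subtilase that cleaves the inhibitory peptide EPF2, stood at 5.84 and 5.99 log2 in Col and 6.88 in flp-1/myb88, and it rose by 0.97 ± 0.30 (limma adjusted p = 0.0318). SOL1 (AT3G22760), a CXC-domain DNA-binding protein of the lineage, stood at 5.64 and 5.54 in Col and 6.56 in flp-1/myb88, and it rose by 0.97 ± 0.30 (limma adjusted p = 0.0310). SOL1 lost its call when limma's spread was fitted with an intensity trend, at an adjusted p of 0.0525. BRXL2 (AT3G14000), a partner of the polarity protein BASL, differed by 0.86 (limma adjusted p = 0.0513), just outside the threshold. It was past it after median centring, quantile normalization and cyclic loess, at limma adjusted p-values of 0.0390, 0.0448 and 0.0395. AGL16 (AT3G57230), a MADS-box factor that promotes extra lineage divisions, had a mutant value of 7.08 between its Col values of 7.40 and 6.77. In the whole list 3 of 8 measured genes were higher and 0 lower by limma at the adjusted threshold, beside 11.9% higher and 14.4% lower over all probe sets. At an unadjusted p under 0.05, 0 of the 8 were lower. No share over all probe sets at that cut in this fit is given, here or for the lists below. The median difference of the list was 0.67 log2, beside 0.10 over all probe sets.

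Of the other guard cell genes, none passed the threshold. A list of 56 had 7 with a named probe set, the 4 described above and 3 kinases. BHP (AT4G18950), a Raf-like kinase that binds BLUS1, stood at 7.05 and 6.97 log2 in Col and 6.91 in the mutant, a difference of -0.10 ± 0.30 with a 95% confidence interval from -0.75 to 0.54. CBC1 (AT3G01490) and CBC2 (AT5G50000) are Raf-like kinases that restrain anion channels and so favour opening. CBC1 stood at 6.59 and 6.33 in Col against 7.27 in flp-1/myb88. Its difference of 0.81 (limma adjusted p = 0.0658) passed after median centring, at an adjusted p of 0.0481. CBC2 differed by 0.63 (limma adjusted p = 0.131). By limma 0 of these 3 passed, and 1, CBC1, had an unadjusted p under 0.05. The 7 measured guard cell genes held 1 rise and 3 falls, all in the 4 genes described above, beside 11.9% higher and 14.4% lower over all probe sets. Their median difference was -0.10 log2, which became 0.0026 after median centring. BLUS1 fell while its binding partner BHP did not pass the threshold, and the difference between these genes was not tested.

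**Figure D3:**
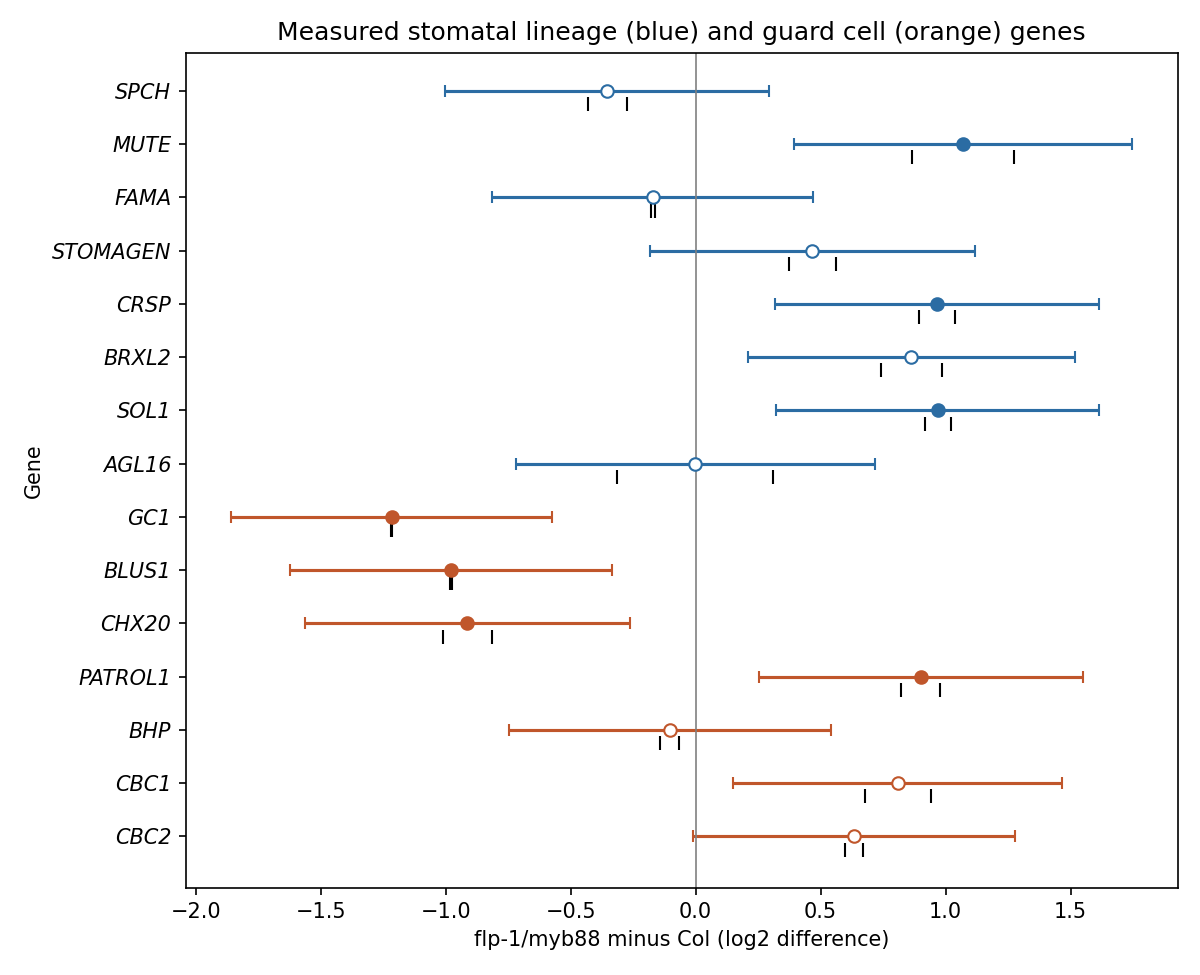
Difference between flp-1/myb88 and the Col mean (log2) for the 8 measured stomatal lineage genes (blue) and the 7 measured guard cell genes (orange), with limma's 95% confidence interval; filled points passed the adjusted threshold. Black ticks under each point give the difference against each Col array alone. MUTE, CRSP and SOL1 are the filled blue points, all above 0, while the filled orange points lie on both sides of 0.

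Markers of other cells were checked beside these genes. Of 17 other epidermal genes 2 were measured, and they went in opposite directions. ACR4 (listed as CR4), a receptor kinase of the epidermis, stood at 5.31 and 5.27 log2 in Col and 6.29 in flp-1/myb88 and passed the threshold (limma adjusted p = 0.0272), and TRY, a repressor of trichome fate, fell by 1.84 ± 0.30 (limma adjusted p = 0.00124). Of 16 mesophyll and vascular genes 4 were measured (LHCB4.1, PSAN, RCA and SWEET11). All 4 lay above both Col arrays, as did 11198 of all 22746 probe sets. Their differences ran from 0.39 to 0.57, and 0 passed limma's threshold or an unadjusted p under 0.05. Their intensities, from 9.28 to 11.78 log2, were in the top 5% of each array, as is usual for green shoots. Of 5 root genes 1 was measured, PYK10, a glucosidase of roots and seedling stems, which stood at 11.66 and 11.61 log2 in Col and 11.40 in the mutant, above the 99th percentile of each array. It was thus bright in samples labelled as shoots of both genotypes, and its difference was -0.23 ± 0.30 log2 (limma adjusted p = 0.599). The part of cell composition in the changes of the 8 genes was not tested.

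The genes next to the 8 on the chromosomes were also read. Of the 16 protein-coding genes that flank them in the order of the TAIR10.1 gene table, 9 had a named probe set, of which 1 rose and 3 fell, beside 11.9% higher and 14.4% lower over all probe sets. The 9 are too few to say anything of neighbours as a class. SPCH lies between TRY and AT5G53220, which fell by 1.84 ± 0.30 and 1.39 ± 0.33 log2 (limma adjusted p = 0.00124 and 0.00955), while SPCH itself did not pass. STOMAGEN follows GILT, whose log2 intensity of 7.60 and 8.53 in Col went to 5.71 in the mutant, a fall of 2.35 ± 0.37 (limma adjusted p = 0.00105). GC1 precedes AT1G22700, which rose by 1.18 ± 0.30 (limma adjusted p = 0.0132) where GC1 fell. The measured neighbours of MUTE, FAMA and BLUS1 did not pass the threshold.

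The pattern of a gene over 3 arrays is a weak label, and other genes shared that of most of the 5 that passed. Likeness was taken as the Euclidean distance between log2 values centred on each gene's own mean over the 3 arrays, among genes whose mean level was within 0.5 log2. Nearest to MUTE were AT1G61450, AT1G35617 and AT1G68230, at distances of 0.058, 0.059 and 0.073, and 4 of 2651 candidates were within 0.1. Nearest to GC1 were AT4G34150, TET8 and VTC4, at 0.10, 0.19 and 0.21, and 0 of 375 candidates were within 0.1. Within the same distance there were 17 of 2572 candidates for BLUS1, led by AT3G44980, AT1G50110 and AT1G01130. For CHX20 there were 3 of 564, AT1G04800, SDH1-1 and AT2G38740, and for PATROL1 18 of 1392, led by AT5G08535, AT5G10560 and ACLA-2.

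**Figure D4:**
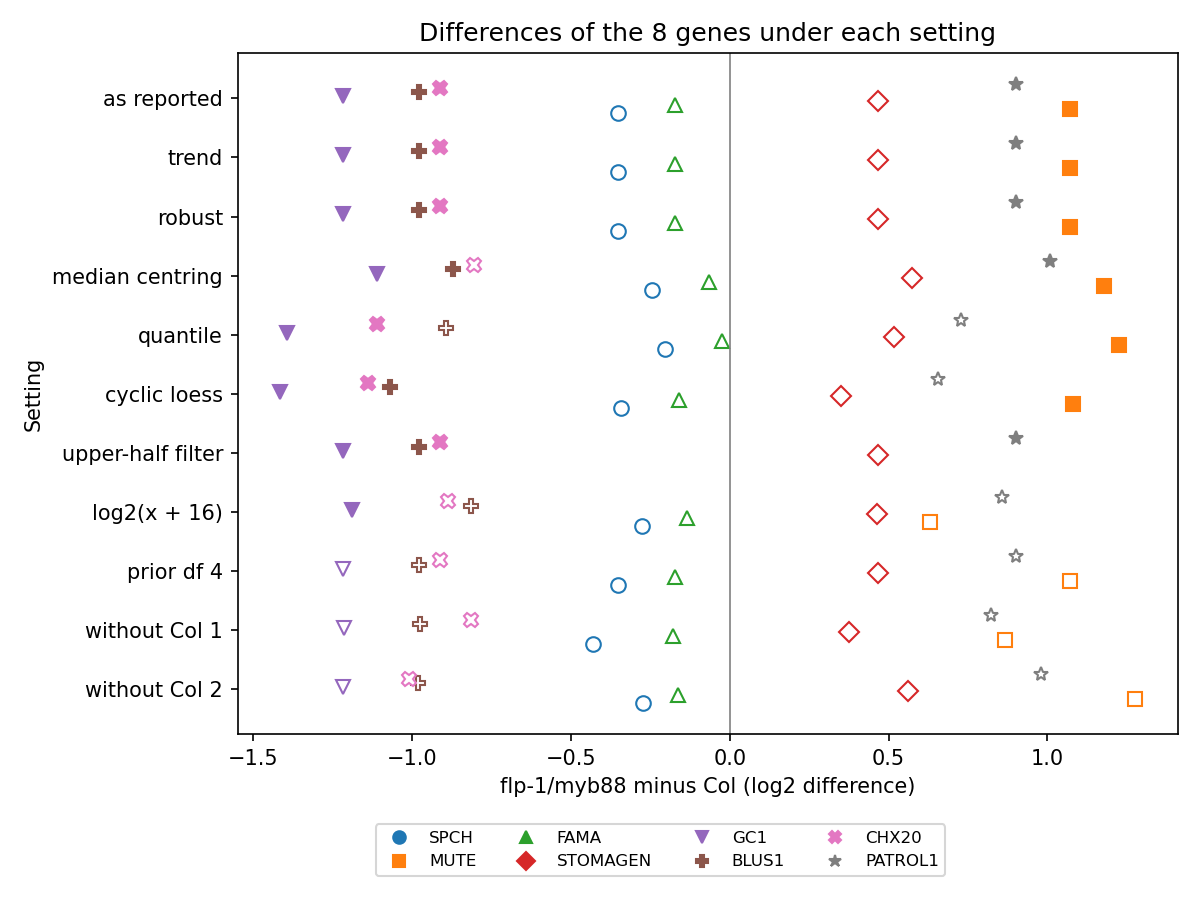
Difference between flp-1/myb88 and Col (log2, horizontal) of each of the 8 genes under each setting (vertical); filled symbols passed limma's adjusted threshold, and open ones did not or, without a Col array, were not tested. SPCH, MUTE and FAMA have no symbol at the upper-half filter, which leaves them out. Each gene keeps its side of 0 under every setting shown, though the trend, robust, filter and prior settings cannot move a difference. GC1 is the one that stays filled under all tested settings except the prior of 4 degrees of freedom.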

How the data were processed

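Per the labels' protocols, 25 ng of shoot RNA per sample went through NuGEN's Ovation amplification and biotin labelling. The deposited intensities, 1 per probe set, were made by the authors with RMA according to the submitters' processing notes, with software, version and settings not given in the sources used here. They ran from 6.06 to 7618 and were read as linear, so log2 was taken with no pseudocount. Controls (64 of 22810 probe sets) were left out of tests. Of the 22746 others, 13513 had 1 gene in the platform annotation, 503 several and 8730 none, and 13436 matched the TAIR10.1 gene table, which was used for names and for the order of genes along the chromosomes, with no coordinates given because the files name no build. Median intensities were 68.7 and 69.7 in Col and 64.2 in flp-1/myb88, so the 3 arrays did not share one distribution of values. Whether they were normalized together is not given, and the fit reported here did not normalize them further. Precision is limited by having 3 arrays.

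All 3 arrays were fitted with limma 3.58.1 in R 4.3.3 (lmFit, eBayes, two-sided, Benjamini-Hochberg over all probe sets, threshold 0.05). The fit takes the spread of flp-1/myb88 to equal that of Col. The prior SD was 0.253 and the median standard error 0.30. The fit was tested on simulated data, where it recovered large changes. It estimated the prior degrees of freedom too high there, from 1 residual degree of freedom.

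Named were the 8 genes, every other measured gene of the stomatal lineage and guard cell lists, up to 4 measured genes of the epidermal and the mesophyll and vascular lists, the root marker PYK10, flanking genes, and the 3 genes most like each called gene. Flanking genes and probe sets of similar level were added after the data were seen. The members and lists were chosen with earlier results of these data known. A percentile is the share of probe sets on the same array with a lower value. Alternatives were a trended and a robust eBayes fit, median centring, quantile normalization, cyclic loess, a filter on low values, an added 16 intensity units, each Col array left out and, added later, a prior fixed at 4 degrees of freedom. Signal over background per probe was not analysed here, and no protein or promoter sequences were used here.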

Additional observations from a re-analysis of the deposited data

Results flagged for a closer look

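Among the control probe sets, which were kept out of the fit, some values set the mutant array apart. For the second actin pair the 3′ probe set was 5.15 log2 above the 5′ one in flp-1/myb88, where it was 3.45 and 3.17 above it in Col. The bacterial poly-A controls had a median log2 intensity of 3.47 in flp-1/myb88, against 3.10 and 3.04. Their part in the results on the 8 genes was not tested.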

How the results depend on the processing

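Each of the 8 genes kept its direction under median centring, quantile normalization, cyclic loess, the added 16 units and without either Col array. FAMA did so by a difference of only -0.026 log2 after quantile normalization. The trended and robust fits, the filter and the fixed prior cannot change a direction, since they leave the log2 difference as it was. MUTE, SPCH and FAMA were left out by the filter on low values. No paired analysis was possible because there was a single mutant array. Leaving out a Col array left no residual degrees of freedom, so those values have no test. With the prior fixed at 4 degrees of freedom, limma made 0 calls in either direction over all probe sets, the 8 genes and each list, with a smallest adjusted p of 0.0644 and 7126 probe sets at an unadjusted p under 0.05. Adding 16 intensity units left 1123 higher and 1619 lower over all probe sets, 0 higher and 1 lower (GC1) of the 8 genes and of the guard cell list, and 0 higher of the stomatal and epidermal lists. Quantile normalization left 1749 probe sets higher, 1 of the 8 genes higher and 0 guard cell genes higher. Cyclic loess also left 1 of the 8 and 0 guard cell genes higher. Median centring, which moved the median of all probe sets from 0.10 to 0.21 log2, gave 2 guard cell genes higher. The filter left 1976 probe sets lower, with 1 of the 8 genes, 1 stomatal, 2 guard cell and 0 epidermal genes higher, fewer being tested. The trended fit left 0 epidermal genes higher. The median of the stomatal list, 0.67 log2, was 0.77 after median centring, 0.76 after quantile normalization, 0.64 after cyclic loess and 0.52 with 16 units added, and from 0.62 to 0.65 without a Col array. That of the guard cell list, -0.10, was 0.0026 after median centring and -0.27 after cyclic loess, and from -0.14 to -0.065 without a Col array. At 1.5-fold outside both Col arrays, 4247 probe sets were higher and 3887 lower, with 2 and 3 of the 8 genes. Without a Col array the 2-fold counts ran from 1405 to 2665 higher and from 2623 to 3487 lower, and from 0 to 1 and from 1 to 2 of the 8 genes. Without Col replicate 1 those over all probe sets were 2665 and 3487. Without Col replicate 2, CHX20 and MUTE, which was dim in Col, passed 2-fold beside GC1. Among probe sets of exactly 1 gene, mean Col percentiles were 52.8 for SPCH, 51.5 for FAMA, 98.3 for GC1, 68.4 for BLUS1, 97.2 for CHX20 and 84.3 for PATROL1. The other causes were not tested.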
